A study of Homo sapiens with 4 samples.

Results

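The genes described here encode the sugar-transferring enzymes of the Golgi apparatus that build CD15 and related surface glycans, together with carbohydrate sulfotransferases and chondroitin-building enzymes. They were chosen by name, as genes whose symbol on the array platform begins with FUT, B3GNT, B3GALT, B4GALT, ST3GAL, ST6GAL, ST8SIA, GALNT, MGAT, GCNT, CHST, CHSY or CSGALNACT, and the 6 antisense or divergent RNAs of that naming were left out. A total of 96 of 19775 named genes met this rule, read by 217 probe sets, and 3 of them (GCNT7, GCNT1P1 and MGAT4EP) are annotated as pseudogenes. Each gene is represented by its brightest probe set, and 70 of the 96 were bright enough to be tested.

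The cells were KM-H2, an established Hodgkin lymphoma line grown under standard conditions. The control group is 2 arrays of KM-H2 cells transduced with a non-silencing construct, and the knockdown group is 2 arrays of KM-H2 cells transduced with a lentiviral pGIPZ vector whose hairpin (sh.FLJ27352) targets the CIITA-BX648577 fusion transcript through its BX648577 part. Both groups are thus transduced cells of 1 line, and 1 hairpin was used. The labels number the replicates without saying whether they are separate cultures, so p-values measure only the spread between these arrays.

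CD15, or Lewis x, is a lactosamine unit of galactose and N-acetylglucosamine to which a fucose has been added, and with CD30 it is a diagnostic marker of Hodgkin Reed-Sternberg cells. The disaccharide is built by galactosyltransferases and N-acetylglucosaminyltransferases on branched N-glycans, mucin-type O-glycans or lipids. Fucosyltransferases such as FUT4 and FUT9 then complete the epitope, while sialyltransferases can cap the same galactose and FUT7 turns the capped chain into sialyl Lewis x, a selectin ligand. Chondroitin sulfate is a separate class of chain, started on a proteoglycan by CSGALNACT1 or CSGALNACT2, lengthened by chondroitin synthases and sulfated by CHST enzymes.

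Promoters of FUT4, the CD15 enzyme, and GALNT2, an enzyme that starts O-glycans, are shown. The brightest probe set of each gene read higher on both knockdown arrays than on both control arrays. Each is the 250 bases before the transcript start of RefSeq on GRCh38.p14, plus strand, at chr11:94543671-94543920 for FUT4 and chr1:230066988-230067237 for GALNT2. Capitals mark matches, on either strand, to the GC box (GGGCGG), the CCAAT box (CCAAT), the TATA box (TATAAA) or the AP-1 site (TGANTCA).
FUT4: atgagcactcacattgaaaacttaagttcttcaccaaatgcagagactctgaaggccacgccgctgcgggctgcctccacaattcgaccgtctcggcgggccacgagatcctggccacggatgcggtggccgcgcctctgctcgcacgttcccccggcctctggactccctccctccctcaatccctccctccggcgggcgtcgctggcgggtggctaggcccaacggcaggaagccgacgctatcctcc
GALNT2: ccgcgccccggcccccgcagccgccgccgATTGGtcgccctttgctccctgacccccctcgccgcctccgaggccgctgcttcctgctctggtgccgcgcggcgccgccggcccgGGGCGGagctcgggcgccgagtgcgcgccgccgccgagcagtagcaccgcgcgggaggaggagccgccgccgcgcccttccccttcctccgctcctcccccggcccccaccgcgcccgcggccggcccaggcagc
The FUT4 window held none of these letters at a GC content of 65.2%. The GALNT2 window, at 82.8% GC, held 1 CCAAT box beginning 221 bases before the start and 1 GC box beginning 135 bases before it. RefSeq windows could be matched for 55 of the 70 tested members, 94 windows in all, since a gene may have several starts. A GC box lay in 60.6% of these windows against 42.6% of all 35116 windows of that length, a CCAAT box in 27.7% against 32%, an AP-1 site in 4.26% against 6.57%, and a TATA box in 0 of the 94 against 10.7%. These matches describe the letters only.

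The values are linear probe set intensities with array means of 53.3 to 54.6. The array medians were lower in knockdown, at 8.37 and 8.12 against 9.17 and 9.28 in control. PIERCE2, which by general knowledge is the current name of FLJ27352, read 880 and 947 in control and 621 and 590 in knockdown. Its knockdown mean was 66.3% of the control mean. CIITA, the other partner of the fusion, read 59.6 and 65.1 in control and 60.65 and 53.6 in knockdown. Its groups overlapped, at a log2 fold change of -0.10 (limma adjusted p = 0.702 with the common prior and 0.718 with the intensity trend). The cells carried Hodgkin Reed-Sternberg markers, with all 8 listed genes, FUT4 among them, above the filter on dim probe sets. Their summed intensity was 1613 to 1644 in control and 1539 to 1569 in knockdown. Of the 8, 6 had a log2 fold change above 0 and 2 below, so the lower sum is not a fall of the whole list. FSCN1 (fascin), the brightest of that list, read 644 and 618 in control and 507 and 500.5 in knockdown. Its log2 fold change was -0.32, with limma adjusted p-values of 0.276 (common prior) and 0.0162 (intensity trend). CD30 (TNFRSF8) read 110 and 115 in control and 134 and 115 in knockdown. Granulocytes also carry CD15, and 3 of 6 myeloid and granulocyte markers lay above the filter. All 6 summed to 133 to 135 in control and 129 to 132 in knockdown. CSF1R was the brightest, at 84.8 and 75.7 in control and 82.2 and 87.8 in knockdown, while ELANE read 3.37 or less on every array. The T cell list summed to 199 to 212 in control and 249 to 294 in knockdown, almost all of it CD3D. CD3D read 194, 183, 253 and 225 while CD3E, CD3G, CD2 and CD247 stayed between 1.00 and 14.0. The log2 fold change of CD3D was 0.32, with limma adjusted p-values of 0.288 (common prior) and 0.0499 (intensity trend). The part of these marker levels in the results was not tested, and in bulk RNA fewer expressing cells and less RNA per cell cannot be told apart. Only 1 of 5 epithelial markers lay above the filter. All 5 B cell markers lay above it, as did all 8 of the Hodgkin list, but they were dim, at 6.25 to 37.9. CCL17 of the Hodgkin list read 12.36 on control replicate 2, within that range.

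Among the 70 tested members, FUT4, GALNT2 and CSGALNACT1 stood higher in the hairpin cells and passed 1 of the 2 fits used, while no member passed as lower. In limma's fit with 1 prior variance for all genes (the common-prior fit) no member passed an adjusted p of 0.05, and 10 of 70 had an unadjusted p below 0.05, a share of 14.3% against 14.1% of all genes. Of these 10, 4 were higher and 6 lower, where 6.41% of all genes were higher and 7.68% lower. The 6 lower include GALNT14 and GALNT16, whose knockdown means lay below the filter intensity of 8.26. They were tested only because their controls were brighter, so nothing is read from these counts. In that fit 0.0155% of the 12922 genes tested were called. In limma's fit whose prior variance follows intensity (the intensity-trend fit) 3 of 70 members, or 4.29%, were called against 2.99% of all genes, and all 3 were higher, where 1.59% of all genes were called higher and 1.4% lower. These shares are near the background, so the calls say nothing of the enzymes as a class. The median log2 fold change of the tested members, computed as knockdown minus control after taking log2(intensity + 16), was -0.03 against -0.01 for all genes tested.

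**Figure D1:**
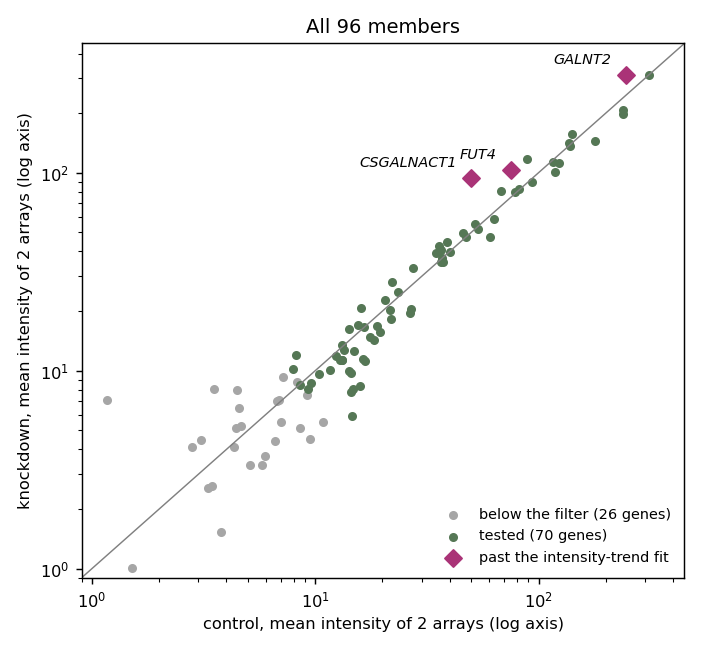
Mean intensity of each of the 96 members in control (horizontal, 2 arrays) and knockdown (vertical, 2 arrays), both on log axes, with the line of equal values. Green points are the 70 tested genes, grey points the 26 below the filter, and diamonds the 3 genes past the intensity-trend fit, which lie above the line.

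For 26 of the 70 tested members the intensities of the groups did not overlap, with knockdown higher for 11 and lower for 15. That is 37.1%, against 47.3% of all genes tested (22.7% higher and 24.5% lower). These members include CHST8, whose control mean lay below the filter intensity of 8.26. They also include MGAT4C, GALNT14 and GALNT16, whose knockdown means lay below it. Of the 70, 49 had a fold change within 0.2 of 0 on the log2 scale. Members above and below 0 numbered 30 and 40, and 40 and 30 when each array was centred on its median. No overall direction of these enzymes can therefore be given.

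**Figure D2:**
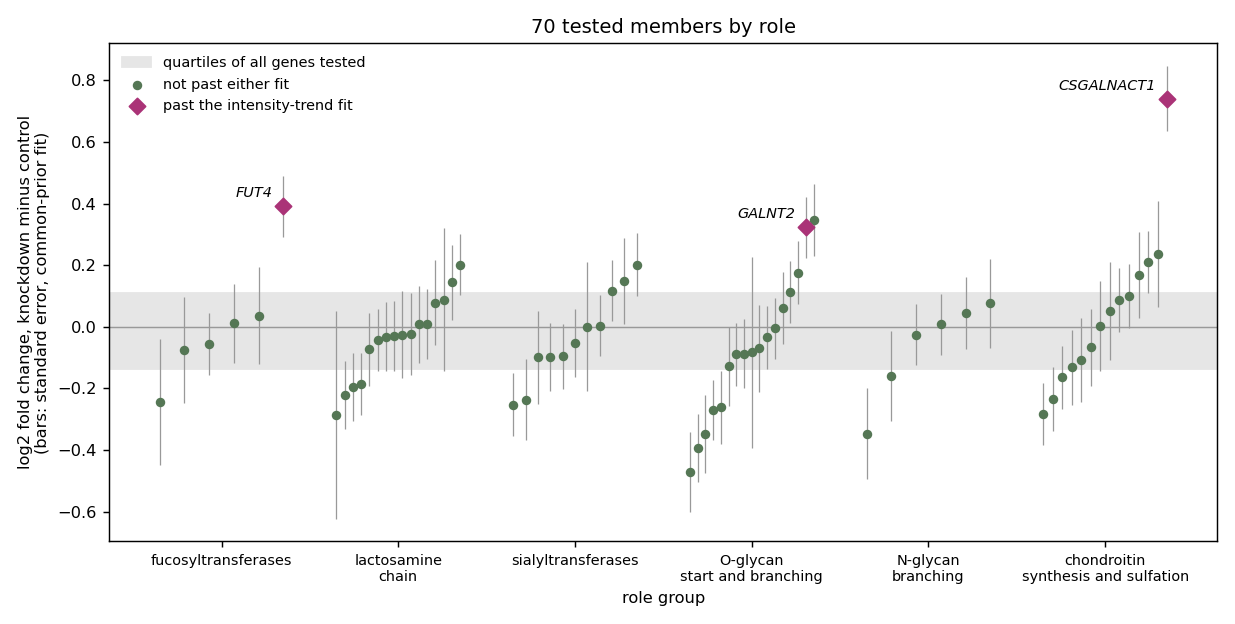
Log2 fold change, knockdown minus control, of the 70 tested members in their 6 role groups, with standard errors of the common-prior fit over 2 arrays per group, and a grey band from the lower to the upper quartile of all genes tested. Diamonds mark FUT4 (0.39), GALNT2 (0.32) and CSGALNACT1 (0.74), and most other members lie in or near the band.

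Of the fucosyltransferases, FUT4 was the one that passed a fit. Its brightest probe set read 76.6 and 73.9 in control and 102 and 105 in knockdown. Both knockdown arrays were higher than both controls, and the arrays of each group lay close together. The means were 75.3 ± 1.90 and 104 ± 2.44 (SD, n = 2 each), a log2 fold change of 0.39 (SE 0.10) with limma adjusted p-values of 0.255 (common prior) and 0.0406 (intensity trend). That call was lost when any 1 array was left out, with adjusted p-values from 0.0686 to 0.285 at fold changes of 0.37 to 0.41. The second FUT4 probe set read 56.6 and 49.0 in control and 54.6 and 61.3 in knockdown, so its groups overlapped at a log2 fold change of 0.10. When every probe set was fitted with the trend, the brightest one had an adjusted p of 0.0518. With both probe sets averaged, FUT4 stood at 0.25 and did not pass (adjusted p = 0.227).

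The other fucosyltransferases did not pass either fit. FUT8, which adds the core fucose of N-glycans, read 31.4 and 42.3 in control and 35.5 and 38.4 in knockdown (log2 fold change 0.01, SE 0.13). Its second probe set read 20.0 and 19.1 against 22.9 and 23.95 (0.15). FUT7, the enzyme of sialyl Lewis x in leukocytes, read 20.6 and 22.9 in control and 26.8 and 13.9 in knockdown (-0.08, SE 0.17), with the knockdown arrays on either side of the controls. FUT9, the other main enzyme of Lewis x, was dim and scattered at 19.2, 9.69, 14.0 and 5.48 (-0.24, SE 0.20). FUT1, which makes the H antigen, read 17.7, 8.59, 12.8 and 14.2 in the same order of arrays (0.04, SE 0.16).

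FUT6, of the Lewis enzyme cluster with FUT3 and FUT5, read 36.2 and 38.5 in control and 36.9 and 33.7 in knockdown (-0.06, SE 0.10). The suffix of that probe set marks probes shared among similar transcripts, which leaves the level uncertain. FUT3, FUT5 and FUT2 lay below the filter, with values from 1.02 to 14.5. FUT2, which makes the H antigen of secretions, read 1.31 and 1.02 in control and 9.79 and 4.50 in knockdown, a range in which it was not tested. The donor side of fucosylation showed no call either. GMDS, which starts GDP-fucose synthesis, read 206 and 228 in control and 233 and 198 in knockdown, and GFUS, which completes it, read 61.2 and 58.2 against 76.7 and 66.2 (0.20, intensity-trend adjusted p = 0.366). SLC35C1, the Golgi transporter of GDP-fucose, read 16.3 and 11.4 against 7.39 and 11.3 (-0.23, adjusted p = 0.540).

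**Figure D3:**
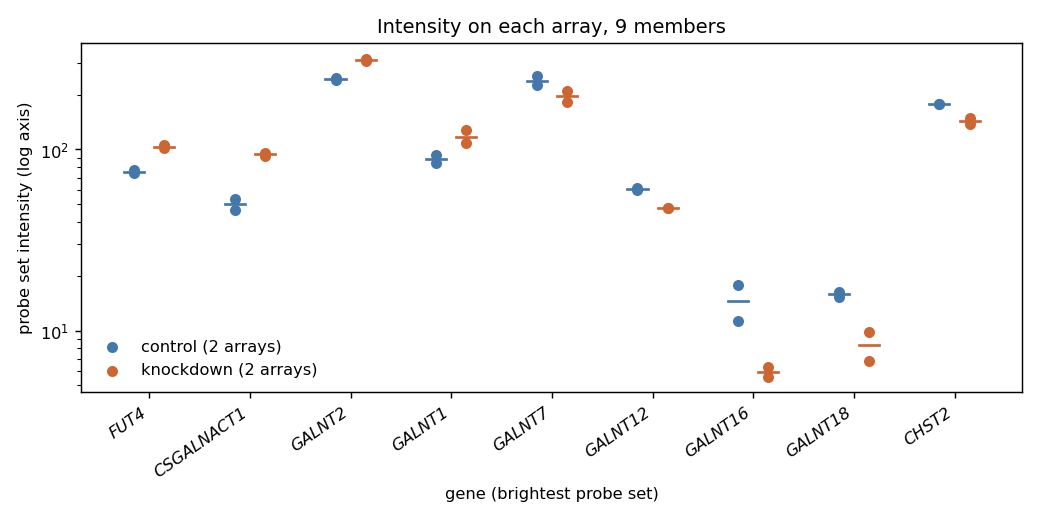
Probe set intensity (log axis) on each of the 2 control and 2 knockdown arrays for 9 members, with horizontal bars at the group means. FUT4, CSGALNACT1, GALNT2 and GALNT1 are higher on both knockdown arrays, and GALNT7, GALNT12, GALNT16, GALNT18 and CHST2 are lower on both.

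The B3GNT, B3GALT and B4GALT families, grouped by name, hold the enzymes of the lactosamine backbone that FUT4 decorates and some that act on other chains. Of 20 genes 16 were tested, 6 above 0 and 10 below. None passed either fit (2.99% of all genes passed the intensity-trend fit), and 0 had an unadjusted p below 0.05 in limma's common-prior fit, beside 14.1% of all genes. Their fold changes ran from -0.29 to 0.20 on the log2 scale, and for 12 of the 16 the groups overlapped, leaving 4 apart, where 47.3% of all genes tested were apart. B3GNT2, the main enzyme that lengthens lactosamine chains, read 243 and 232 in control and 201 and 214 in knockdown, lower on both knockdown arrays (-0.19, SE 0.10, intensity-trend adjusted p = 0.246). Its next probe set read 37.0 and 33.7 against 37.6 and 37.4 (0.06).

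B4GALT1, which adds galactose to N-acetylglucosamine, read 127 and 155 in control and 151 and 163 in knockdown, with overlapping groups (0.14, SE 0.12). Its other probe sets above the filter were dimmer and lay on both sides of 0, at -0.18, 0.35 and 0.16. B4GALT7, which builds the linker of glycosaminoglycans to proteins, read 16.4 and 15.6 against 20.7 and 20.9 (0.20, SE 0.10), while its other probe set read 19.4 and 15.2 against 13.6 and 14.6 (-0.14). B3GALT1, which makes the alternative galactose linkage, read 15.4 and 13.0 against 11.3 and 8.56 (-0.22, SE 0.11, intensity-trend adjusted p = 0.551). B3GNT7 was scattered within both groups, at 25.2 and 8.27 in control and 2.88 and 19.6 in knockdown.

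Sialyltransferases, which cap the same chains, likewise had no call, with 11 of 13 tested, 5 above 0 and 6 below. Of all genes, 2.99% passed the intensity-trend fit and 14.1% had an unadjusted p below 0.05 in the common-prior fit. For 11 genes, the lack of a call therefore says nothing of the family. ST3GAL6, an enzyme that prefers lactosamine and can feed sialyl Lewis x synthesis, read 26.4 and 26.5 in control and 21.1 and 18.3 in knockdown. Both knockdown arrays were lower, at 74.4% of the control mean (log2 fold change -0.25, SE 0.10), and it had the only unadjusted p below 0.05 of this group (0.0437, adjusted p = 0.341 with the common prior and 0.381 with the trend). ST3GAL4, which acts on the same chains, read 10.6 and 8.56 against 9.94 and 7.34. ST3GAL2, which sialylates O-glycans and gangliosides, read 69.3 and 66.3 against 77.2 and 83.7 (0.20, SE 0.10), higher on both knockdown arrays, and its other probe sets above the filter gave 0.09, -0.01 and 0.15. ST8SIA1, the GD3 ganglioside synthase, read 35.1 and 34.6 against 38.8 and 39.6 (0.12). ST6GAL1, whose product is the ligand of CD22 on B cells, was dim at 12.4, 13.9, 10.1 and 12.5 (-0.10).

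The GALNT enzymes, which attach the first N-acetylgalactosamine of mucin-type O-glycans to serine or threonine, lay on both sides of 0. With the GCNT branching enzymes, 17 of 25 genes were tested. None passed the common-prior fit, and GALNT2 passed the intensity-trend fit. GALNT14 and GALNT16 had knockdown means below the filter intensity of 8.26 and were tested only because their controls were brighter, so no count of differing GALNT genes is read here.

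GALNT2, a broadly expressed isoenzyme, read 249 and 243 in control and 308 and 315 in knockdown. The groups were far apart relative to their spread, with means of 246 ± 3.64 and 312 ± 4.67 (SD, n = 2), a log2 fold change of 0.32 (SE 0.10) and limma adjusted p-values of 0.273 (common prior) and 0.0291 (intensity trend). A second probe set gave 36.0 and 33.2 against 62.6 and 63.3 (0.64, adjusted p = 0.00890 when every probe set was fitted with the trend), and another 63.6 and 50.5 against 73.9 and 71.4 (0.29, adjusted p = 0.230). The GALNT2 call was lost without any 1 array (adjusted p from 0.0607 to 0.187, fold changes 0.31 to 0.34) and with the mean of its probe sets (0.25, adjusted p = 0.252), which includes a dim one at 12.4, 7.21, 8.74 and 3.18.

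GALNT1, another broadly expressed isoenzyme, read 93.7 and 84.3 in control and 108 and 127 in knockdown (0.35, SE 0.12, intensity-trend adjusted p = 0.0810). Its other probe sets above the filter also lay above 0, at 0.18, 0.05 and 0.27. GALNT7, which acts mainly on sites next to an existing sugar, read 254 and 226 against 211 and 184 (-0.26, SE 0.12, intensity-trend adjusted p = 0.129). Without knockdown replicate 2 the GALNT7 difference was -0.17 (limma intensity-trend adjusted p = 0.698), and its second probe set gave 77.6 and 67.7 against 84.1 and 69.8 (0.07).

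On the lower side, GALNT12, GALNT14, GALNT16 and GALNT18 had an unadjusted p below 0.05 in limma's common-prior fit, as did 7.68% of all genes. With the knockdown means of GALNT14 and GALNT16 below the filter intensity, and that of GALNT18 just above it at 8.32, these 4 are not read as a count. GALNT12 read 60.1 and 61.0 in control and 47.6 and 47.4 in knockdown (-0.27, SE 0.10), against 13.7 and 14.4 and then 19.6 and 16.3 at its second probe set (0.17). GALNT16 read 11.2 and 17.9 against 6.27 and 5.58 (-0.47, SE 0.13), and GALNT18 16.4 and 15.4 against 9.83 and 6.81 (-0.39, SE 0.11). GALNT14 read 11.3 and 17.7 against 7.66 and 7.96 (-0.35). GALNT14, GALNT16 and GALNT18 were dim on every array. The fold changes of GALNT16 and GALNT18 were -1.14 and -0.88 with a pseudocount of 1 and -0.17 and -0.14 with one of 64, and GALNT16 stood at -0.31 without control replicate 2. The intensity-trend adjusted p-values of the 4 ran from 0.172 to 0.324. Among branching enzymes, GCNT1, which makes the core branch of O-glycans that can carry Lewis x, read 19.2 and 15.97 against 11.9 and 17.8 (-0.13), and GCNT2, which branches lactosamine chains, 57.3 and 47.0 against 57.1 and 52.7 (0.06).

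**Figure D4:**
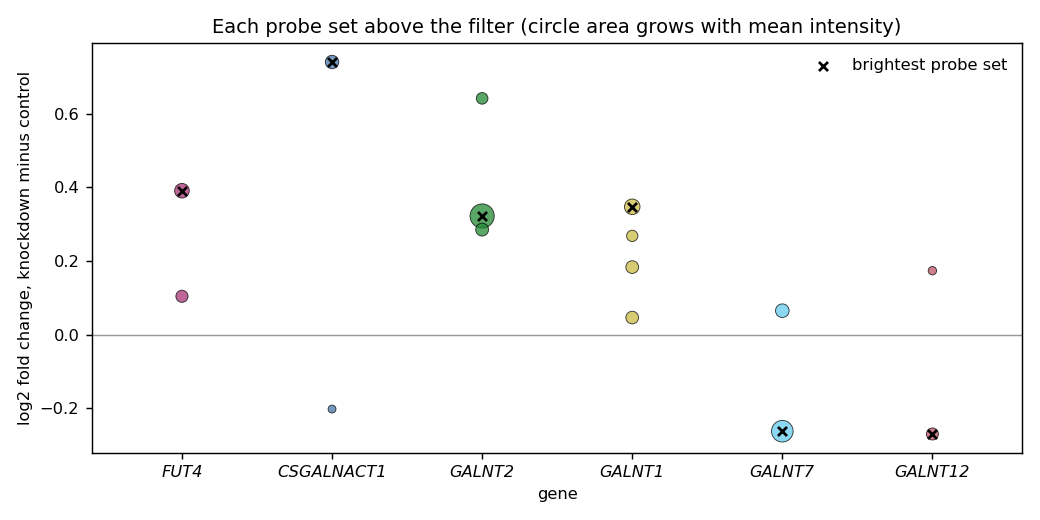
Log2 fold change, knockdown minus control, of each probe set above the filter for 6 members, with circle area growing with mean intensity and a cross on the brightest probe set. All probe sets of GALNT2, GALNT1 and FUT4 lie above 0, while those of CSGALNACT1, GALNT7 and GALNT12 lie on both sides.

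The branching enzymes of N-glycans (MGAT) gave differences close to 0 at their bright probe sets. MGAT2, needed for complex N-glycans, read 144 and 129 in control and 152 and 131 in knockdown (0.05, SE 0.12). MGAT5, which adds the branch favoured for lactosamine extension, read 135 and 142 against 135 and 137 (-0.02, SE 0.10), and MGAT4B, another branching enzyme, 82.9 and 81.4 against 83.6 and 81.7 (0.01, SE 0.10). MGAT4A, its relative, read 22.9 and 20.7 against 13.6 and 22.7 (-0.16), and MGAT4C read 11.2 and 18.2 against 10.2 and 6.02 (-0.35, SE 0.15, intensity-trend adjusted p = 0.346). Of 10 MGAT genes 6 were tested, 3 on each side of 0, and 0 had an unadjusted p below 0.05 in limma's common-prior fit (14.1% of all genes did) and 0 passed the intensity-trend fit (2.99% of all genes did). MGAT4C, too, had a knockdown mean below the filter intensity.

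Of the chondroitin and sulfation group, CSGALNACT1, which starts chondroitin chains, passed the intensity-trend fit. It read 53.4 and 46.5 in control and 95.8 and 92.4 in knockdown. The knockdown arrays stood at 188% of the control mean, 94.1 ± 2.37 against 49.965 ± 4.83 (SD, n = 2), with no overlap. The log2 fold change was 0.74 (SE 0.11), with limma adjusted p-values of 0.247 (common prior) and 0.00157 (intensity trend). The latter call held with each array left out in turn (adjusted p from 0.000891 to 0.0169, fold changes 0.67 to 0.82). The other CSGALNACT1 probe set was dim, at 17.0 and 10.7 against 8.09 and 11.6 (-0.20), and the mean of both gave 0.27 (adjusted p = 0.271).

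CSGALNACT2, which catalyses the same step, read 89.3 and 98.4 in control and 98.9 and 79.6 in knockdown (-0.07, SE 0.13). CHSY1, the chain-lengthening synthase, read 116 and 131 against 121 and 102 (-0.13, SE 0.12), and CHSY3 lay below the filter, at 2.95 to 5.73. Among chondroitin sulfotransferases, CHST15 read 268 and 359 against 305 and 317 (0.00, SE 0.15), a control spread that spans both knockdown arrays. The other CHST15 probe set was dim, at 8.59 and 11.5 against 24.2 and 14.9 (0.44). It did not pass when every probe set was fitted with the trend (limma adjusted p = 0.195). CHST11 read 18.5 and 28.6 against 28.9 and 20.9 (0.05). CHST12 read 12.7 and 15.6 against 16.2 and 16.5 (0.10).

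CHST2, which sulfates N-acetylglucosamine in selectin ligands, read 179 and 178 in control and 138 and 150 in knockdown. Both knockdown arrays were lower, at 80.7% of the control mean (-0.28, SE 0.10, adjusted p = 0.303 with the common prior and 0.0926 with the trend). CHST4, a related enzyme, read 20.9 and 18.3 against 15.1 and 16.4 (-0.16). CHST10, which makes the HNK-1 epitope, read 24.8 and 28.9 against 20.8 and 20.0 (-0.23), and CHST8 8.82 and 7.61 against 12.2 and 11.8 (0.21). None of these passed. CHST8 had a control mean of 8.215, below the filter intensity, and was tested only because its knockdown arrays were brighter.

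A list of 79 genes around these enzymes, covering sugar donors and transporters, other mucin and sialic acid enzymes, N-glycan trimming, glycosaminoglycan chains and carrier proteins, had 74 genes with a probe set of their own and 60 tested. None passed limma's common-prior or intensity-trend fit (0.0155% and 2.99% of all genes did), and 7 (11.7%) had an unadjusted p below 0.05, beside 14.1% of all genes. Their median log2 fold change was 0.02, with 33 above 0 and 27 below, and the groups did not overlap for 23 of 60 (38.3%, against 47.3% of all genes). On the linker that carries chondroitin, B3GAT3, which adds its glucuronic acid, read 72.7 and 52.9 in control and 94.5 and 82.4 in knockdown (0.42, intensity-trend adjusted p = 0.0787), and FAM20B, the linker kinase, 149 and 144 against 186 and 170 (0.25, adjusted p = 0.132). XYLT2 of the same list read 36.3 and 23.1 against 30.4 and 27.4 (-0.01). Of the 15 tested genes of glycosaminoglycan linker and chains, 10 lay above 0 and 5 below. NDST1, a heparan sulfate enzyme, read 34.9 and 29.3 against 24.2 and 14.1 (-0.46, adjusted p = 0.122). For sialic acid, NANS, which makes it, read 90.9 and 82.8 against 114 and 112 (0.33, adjusted p = 0.0816), and SLC35A1, which carries its donor into the Golgi apparatus, 106 and 87.9 against 72.8 and 71.7 (-0.35, adjusted p = 0.0882). Serglycin (SRGN), a core protein that carries chondroitin sulfate in blood cells, read 3402 and 3295 against 3290 and 3270 (-0.03).

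The 26 members below the filter read between 1.00 and 15.4 on single arrays and were not tested. Nearest the filter on the tested side were GALNT3, at 7.90, 9.22, 8.27 and 8.68, and B3GALT4, at 7.97, 10.6, 6.38 and 9.71. Just under it were GALNTL6, at 3.08, 13.5, 10.8 and 6.85, and MGAT3, which adds the bisecting sugar of N-glycans, at 11.5, 6.89, 4.43 and 10.6. Of the 30 members with 2 or more probe sets above the filter, 11 had all of them on one side of 0 and 19 had them on both sides.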

How the data were processed

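The 4 arrays carried biotinylated cRNA prepared by the Affymetrix one-cycle method from column-purified RNA, per the labels' protocols. The authors deposited linear probe set intensity values for 54613 probe sets. How the authors computed and scaled them is not given in these sources. The platform annotation supplied gene names, and the 41091 probe sets with a single gene were used. Each gene took the probe set with the highest mean log2(intensity + 16), and genes dimmer than the median over all probe sets (4.60) were left out. That scale understates changes of dim genes. Fits used limma 3.58.1 (R 4.3.3) on all 12922 genes, with Benjamini-Hochberg adjustment and a threshold of 0.05, and were checked on simulated data. The number of arrays limits precision.

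Alternatives covered prior variance, pseudocount, filter, scaling, probe set choice, replicate block and leaving out arrays. Named members were the markers FUT4 and CSGALNACT1, tested FUT genes, called members and, per role, the 2 of largest moderated t and the brightest. Others (such as GALNT1, GALNT7, GALNT12, GALNT14, CHST4, B4GALT1, MGAT5 and the pathway genes) were chosen for their role or after their values were seen. Members, lists and fits were chosen with earlier results of these data known. Same-numbered replicates did not deviate together (r = -0.0067 over genes, 2 pairs).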

Additional observations from a re-analysis of the deposited data

How the results depend on the processing

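With 2 arrays per group, the calls depended on how variance was modelled. Members called higher numbered 0 in the common-prior fit, 3 in the intensity-trend fit, 3 with a pseudocount of 64 (227 of all 12922 genes) and 1 with the stricter filter (21 of all 7049). With a pseudocount of 64, CSGALNACT1 passed at 0.47 and FUT4 at 0.27, and with the stricter filter CSGALNACT1 passed at 0.74. CSGALNACT1 and FUT4 passed the intensity-trend fit at 0.74 and 0.39. Members called lower and pathway genes called were 0 in these settings. The members' median was 0.0081 with the stricter filter, 0.027 with median centring and 0.0084 when the probe sets of a gene were averaged, and stayed between -0.04 and -0.02 with single arrays left out.

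In the intensity-trend fit, settings chosen after seeing the data gave 1 higher member with no filter (CSGALNACT1), beside 53 of all 19775 genes called higher. Averaging probe sets gave 0, beside 18 of all 11512 genes. Calls were thus few among all genes too. With each array left out in turn, the log2 fold change of CSGALNACT1 was 0.67 to 0.82. Quantile normalization dropped FUT4 (limma intensity-trend adjusted p = 0.0630), with 157 of all 12922 genes called higher. Median centring added GALNT1, with 484 of all genes called higher. CSGALNACT1 passed in 12 of 13 such settings, GALNT2 in 7 and FUT4 in 6. Whether the replicate numbers pair the arrays is not stated by the labels. With the number as a replicate block, the common-prior fit called 0 members, and the intensity-trend fit called 4 higher and 2 lower members (CHST2 and GALNT7), beside 517 higher and 493 lower of all genes, with 2 pathway genes higher and 2 lower. Dim probe sets limit the 26 untested members. The cause of these differences was not tested.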
